A study of Mus musculus with 6 samples.

Results

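miR-7a-5p and miR-7b-5p are the 2 mature mouse forms of miR-7 from the 5p arm of their hairpins. As mmu-miR-7a-5p and mmu-miR-7b-5p they were 2 of the 1976 miRNA rows in a small RNA table from extracellular vesicles of primary hepatocytes. The rows were taken by name, but the pair was selected on its log2 change between the study's groups, which was already known. Levels and changes of the pair are therefore given as a description with no test. The study compared vesicles, called exosomes in the labels, from primary hepatocytes of wild-type C57BL/6J mice. One group of 3 libraries (Control) came from cells given palmitic acid at 0 µM and the other group of 3 (PA) from cells treated at 600 µM. A saturated fat, it serves as a culture model of lipid overload in these cells, and the title of the series links fatty liver, vesicles and endothelial dysfunction. The sources used here do not give the age or sex of the mice, the number of animals, the time of treatment or how vesicles were isolated. They do not say that libraries of a group came from separate cultures, so any p-value refers to the spread among the libraries sequenced, possibly a technical one. No cell other than the cultured hepatocyte is named as a source of the vesicles.

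miR-7 is an ancient miRNA family, best known from neurons, neuroendocrine cells and pancreatic islets. Its described targets include transcripts of growth factor and insulin signalling, such as those of the EGF receptor and the insulin receptor substrates, and in islet beta cells it restrains insulin release. Its level is also set after processing: the circular RNA CDR1as carries many miR-7 sites, the long non-coding RNA Cyrano directs miR-7 to decay, and miR-671 cuts CDR1as.

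The mature sequences are printed because the pair differs so little that the assignment of reads to 1 member or the other turns on a single internal base. Capitals mark the seed, bases 2 to 8 from the 5′ end, through which a miRNA pairs with its targets. All sequences and positions here are from RefSeq on GRCm38.p6.
miR-7a-5p: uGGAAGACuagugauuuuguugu
miR-7b-5p: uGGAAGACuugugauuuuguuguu
Counted from 1 at the 5′ end, the only substitution from miR-7a-5p to miR-7b-5p over the 23 shared positions was A10U, outside the seed. miR-7b-5p is listed with 24 bases, so it also has 1 more base at its 3′ end. Among the 1677 table rows with a RefSeq sequence, the seed GGAAGAC was found in these 2 rows only. The 2 would therefore be grouped as 1 seed family.

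miR-7a-5p is made by 2 genes and miR-7b-5p by 1, and the hairpins are printed because only their other arm tells the genes apart. Capitals mark the mature 5p arm, on the left, and the mature 3p arm, on the right.
Mir7-1: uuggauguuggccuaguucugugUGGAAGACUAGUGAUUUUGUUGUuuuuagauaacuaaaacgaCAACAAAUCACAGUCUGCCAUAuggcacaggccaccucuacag
Mir7-2: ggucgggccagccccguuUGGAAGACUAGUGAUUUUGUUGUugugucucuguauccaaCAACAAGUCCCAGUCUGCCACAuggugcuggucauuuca
Mir7b: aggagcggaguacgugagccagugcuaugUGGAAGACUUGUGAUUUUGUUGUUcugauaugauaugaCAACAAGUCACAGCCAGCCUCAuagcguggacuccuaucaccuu
Mir7-1 lies at chr13:58392779-58392886 on the minus strand. It is inside the protein-coding gene Hnrnpk on the same strand and overlaps none of its GENCODE exons, so it is intronic. Mir7-2, at chr7:78888277-78888373 on the plus strand, overlaps no other GENCODE gene, and the nearest, Aen, is 7481 bases away. Mir7b, at chr17:56242988-56243098 on the plus strand, also overlaps none. The lincRNA AC026385.1 lies 183 bases from it on the same strand. The 3p arms of Mir7-1 and Mir7-2 differ at 3 of 22 positions (A7G, A10C and U21C from Mir7-1 to Mir7-2), and those of Mir7-1 and Mir7b at 5 (A7G, U14C, U16A, A20U and U21C).

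The deposited values are log2(adjusted count + 1), where the adjusted count is a read number moved to an effective library size common to all libraries. Whole read numbers were recovered from these values. The fitted factor of a library, its effective size over the common size, did not follow its total of recovered reads. It was 0.3687 in Control replicate 2 with 657687 reads and 1.685 in PA replicate 3 with 613464 reads. Changes on the deposited scale therefore differ from those by library totals. Totals of recovered reads ran from 95225 to 657687 per Control library and from 613464 to 799051 per PA library. The rows of miR-122, the miRNA that dominates hepatocytes, and of miR-122b together took 69.2% to 87.7% of Control reads and 11.7% to 15.3% of PA reads. The shares of all other miRNAs are measured within what these rows left. Reads were found for 238 to 243 miRNAs per Control library and for 484 to 640 per PA library.

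Both members were rare in Control vesicles and abundant in PA vesicles. miR-7a-5p had 54, 18 and 16 reads in Control replicates 1, 2 and 3, and 9777, 11064 and 6031 reads in PA replicates 1, 2 and 3. miR-7b-5p had 16, 17 and 9 reads in the Control libraries and 5137, 4888 and 2821 in the PA libraries. For neither member did the groups overlap. Over the 181 tested miRNAs the groups were apart in 68.0%, and in 48.6% with PA on the higher side. The Control values of the pair rest on few reads. Control replicate 1 held the most miR-7a-5p of the Control libraries although it was the shallowest.

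**Figure D1:**
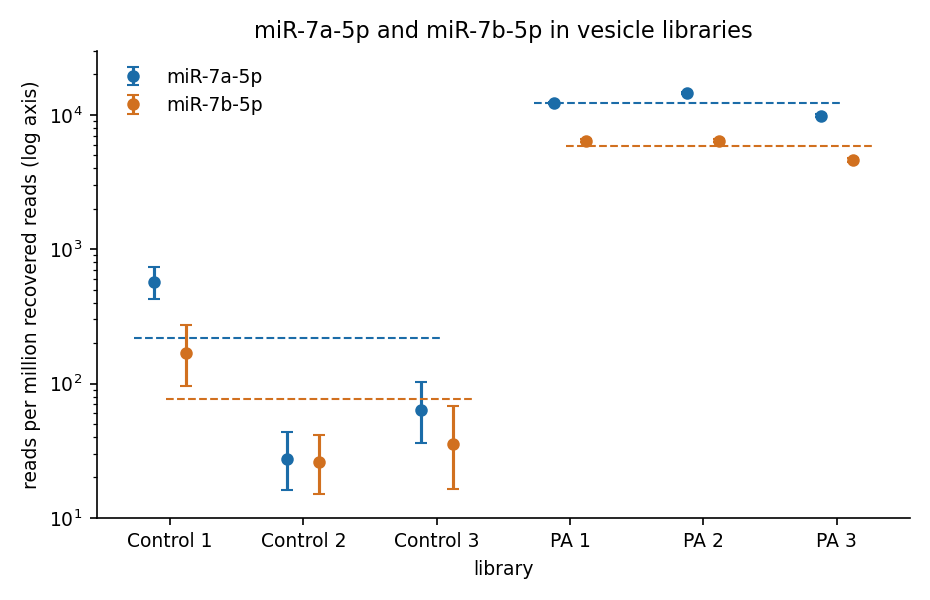
RPM of recovered reads (log axis) of miR-7a-5p (blue) and miR-7b-5p (orange) in each of the 6 libraries. Bars are exact 95% Poisson intervals of the read number, and dashed lines are the means of 3 libraries. Every PA point lies above every Control point, and Control replicate 1 lies above the other Control libraries.

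Scaled to library totals (RPM, the field's usual unit for reads relative to library size), miR-7a-5p stood at 567 (exact 95% Poisson interval 426 to 740), 27.4 (16.2 to 43.3) and 63.4 (36.2 to 103) in Control replicates 1, 2 and 3. In PA replicates 1, 2 and 3 it stood at 12236, 14523 and 9831 RPM. miR-7b-5p stood at 168 (96.0 to 273), 25.8 (15.1 to 41.4) and 35.7 (16.3 to 67.7) RPM in Control and at 6429, 6416 and 4599 RPM in PA. The Control interval of replicate 1 does not reach those of replicates 2 and 3 for either member. No interval here covers more than counting error, because PCR copies of a molecule are counted as separate reads. As group means this was 219 ± 302 against 12197 ± 2346 RPM for miR-7a-5p and 76.5 ± 79.4 against 5815 ± 1053 RPM for miR-7b-5p (SD, n = 3 each).

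By number of reads, miR-7a-5p ranked 55, 83 and 99 among all miRNAs in Control replicates 1, 2 and 3 and 12, 11 and 11 in PA. miR-7b-5p ranked 97, 87 and 118 in Control and 17, 16 and 20 in PA. In PA vesicles both were thus among the 20 most read miRNAs of each library.

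Summed over the pair, the reads do not depend on how they were split between its members. The sum was 70, 35 and 25 reads in Control replicates 1, 2 and 3 and 14914, 15952 and 8852 reads in PA. Of all Control reads this was 0.0735% (0.0573 to 0.0929, 95% Clopper-Pearson interval), 0.00532% (0.00371 to 0.00740) and 0.00991% (0.00641 to 0.0146). In PA it was 1.87% (1.84 to 1.90), 2.09% (2.06 to 2.13) and 1.44% (1.41 to 1.47). The mean share was 0.0296% ± 0.0381 in Control and 1.80% ± 0.330 in PA (SD, n = 3 each).

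Because miR-122 and miR-122b together filled most of each Control library, the share was also taken of the reads that remained without them. Of these, the pair made up 0.239%, 0.0433% and 0.0475% in the Control libraries and 2.20%, 2.37% and 1.66% in the PA libraries, in replicate order. The group means were 0.110% ± 0.112 and 2.08% ± 0.374 (SD, n = 3 each). The ratio of these means was 18.9, against 60.9 for shares of all reads, and the groups did not overlap on either base. Without Control replicate 1 the ratios were 45.7 and 236.5, so this library set much of their size. For the higher share in PA, more vesicles with miR-7 and more miR-7 per vesicle cannot be told apart in these bulk libraries.

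On the deposited scale, the log2 values of miR-7a-5p were 7.40, 5.65 and 5.16 in Control and 12.22, 11.92 and 11.81 in PA. Those of miR-7b-5p were 5.68, 5.57 and 4.37 in Control and 11.29, 10.74 and 10.71 in PA. The lowest PA value of each member lay above its highest Control value. The log2 change was 5.91 (SE 0.59, 95% interval 4.55 to 7.27) for miR-7a-5p, which is 60.2-fold, and 5.71 (SE 0.50, 95% interval 4.57 to 6.85) for miR-7b-5p, which is 52.3-fold. The 2 changes differed by less than the SE of either. Without Control replicate 1 the change of miR-7a-5p was 6.58.

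The sum of the 2 adjusted counts was 218, 95.7 and 54.4 in the Control libraries and 7286, 5570 and 5254 in the PA libraries. Its mean was 122.7 ± 85.1 in Control and 6037 ± 1094 in PA (SD, n = 3 each), a ratio of 49.2. On the log2(sum + 1) scale the change was 5.82 (SE 0.59, 95% interval 4.17 to 7.47). Control replicate 1, with 70 of the 130 Control reads of the pair, lowered it: without that library the change was 6.35, and without any other single library it lay between 5.36 and 5.92.

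Many miRNAs were higher in PA, so the change of the pair has to be read against the others. With limma and Benjamini-Hochberg adjustment at 0.05, 76 of the 181 tested miRNAs were higher (42.0%) and 26 lower (14.4%). A miRNA was tested where its adjusted count was at least 10 in at least 3 libraries. Of the 181, 57 reached that count in at most 1 Control library and so were tested through their PA values. Among all 181, 17 had 0 Control reads. The median log2 change of the 181 was 1.94. The share of higher calls, the median and the shares of miRNAs with groups apart all include such miRNAs. Relative to that median, miR-7a-5p stood at 3.97 and miR-7b-5p at 3.77. By size of the log2 change they ranked 5 and 7.

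The miRNAs around them in that order had far fewer Control reads. Of the 10 largest changes, 8 rested on 11 or fewer reads over the 3 Control libraries together, and 3 of these on 0 reads. miR-7a-5p had 88 such reads and miR-7b-5p 42. Among the 101 tested miRNAs with at least the 42 Control reads of miR-7b-5p, the pair had the largest 2 changes, followed by miR-378c at 4.88. That number of reads was chosen after the values were seen, and the order is a description. miR-101b-3p, left out with 31 Control reads, had a change of 5.44, larger than that of miR-378c.

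**Figure D2:**
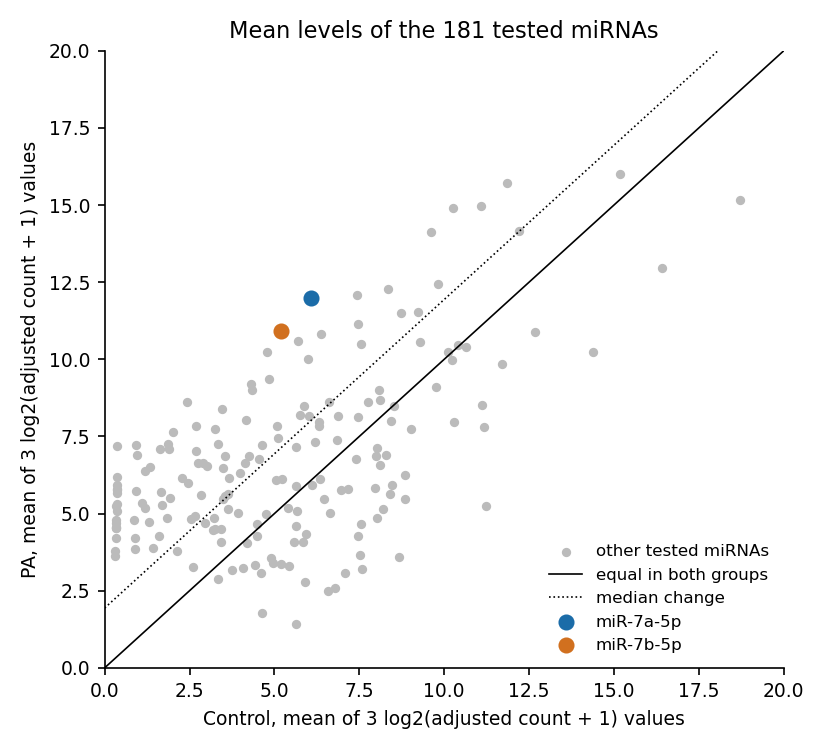
Mean log2(adjusted count + 1) of 3 Control libraries (x axis) against that of 3 PA libraries (y axis) for the 181 tested miRNAs. The solid line marks equal means and the dotted line the median change of 1.94. miR-7a-5p (6.07 against 11.98) and miR-7b-5p (5.20 against 10.91) lie far above both lines.

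The ratio of the members to each other is not touched by library scaling. For each read of miR-7b-5p, Control replicates 1, 2 and 3 held 3.38, 1.06 and 1.78 reads of miR-7a-5p, and PA replicates 1, 2 and 3 held 1.90, 2.26 and 2.14. miR-7a-5p was thus the more abundant member in each library, in Control replicate 2 by a single read. As a share of the reads of the pair, miR-7a-5p made up 77.1% (65.6 to 86.3, 95% Clopper-Pearson interval), 51.4% (34.0 to 68.6) and 64.0% (42.5 to 82.0) in Control. In PA it made up 65.6% (64.8 to 66.3), 69.4% (68.6 to 70.1) and 68.1% (67.1 to 69.1). The 3 PA values lay inside the range of the 3 Control values.

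**Figure D3:**
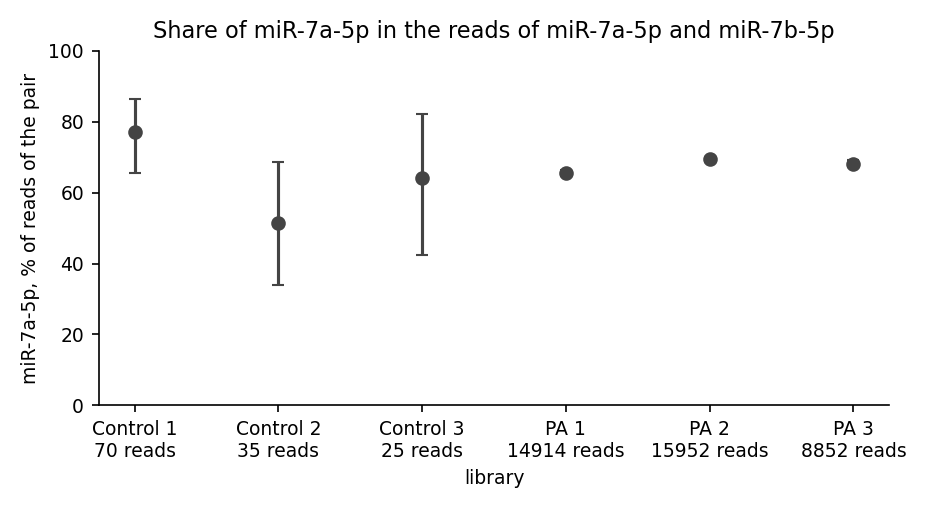
Share of miR-7a-5p in the reads of miR-7a-5p and miR-7b-5p together, in percent, for each of the 6 libraries, with exact 95% Clopper-Pearson intervals and the reads behind each point. Control intervals are wide (34.0% to 86.3% over all 3), and the PA libraries lie between 65.6% and 69.4%.

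The pooled split was close in the groups. Over the reads of all 3 libraries of a group, miR-7a-5p made up 88 of 130 Control reads, or 67.7%, and 26872 of 39718 PA reads, or 67.7%. No interval is given, because pooled reads leave out the spread among libraries. Pooling also weights each library by its reads, and Control replicate 1 gave 70 of the 130. The mean of the library shares was 64.2% ± 12.9 in Control and 67.7% ± 1.94 in PA (SD, n = 3 each). The log2 ratio, with 0.5 added to each adjusted count, was 0.87 ± 0.83 in Control and 1.07 ± 0.13 in PA (SD, n = 3 each). The difference between the groups, 0.19, was smaller than the spread among Control libraries. Its sign was set by Control replicate 2, without which it was -0.20. With so few Control reads, a shift of the split of moderate size was not detectable at this depth.

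The opposite arms of the hairpins were almost absent. miR-7a-1-3p, from Mir7-1, had 0 reads in each Control library and 3, 6 and 1 reads in PA replicates 1, 2 and 3. miR-7a-2-3p and miR-7b-3p had 0 reads in each of the 6 libraries, for which the exact 95% Poisson limit is 3.69 reads. None of the 3 arms passed the filter. Over the PA libraries, there were 26872 reads of miR-7a-5p for 10 of its 3p arms, a ratio of 2687 (exact 95% Poisson interval of the 3p reads, 1461 to 5604). For Mir7b, 12846 5p reads stood against 0. With the 3p reads set to a floor of 3 over the group, the ratio was 4282. That floor lies below the Poisson limit of 3.69, so the ratio is not a 95% bound. The only 3p reads found were of the Mir7-1 form, whose sequence is printed in capitals on the right of its hairpin. They are too few to divide miR-7a-5p between its 2 genes.

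miR-671, which acts on CDR1as, was scarce as well, and neither arm passed the filter. miR-671-5p had 0 reads in the Control libraries and 5, 8 and 10 in PA. miR-671-3p went the other way, with 10, 3 and 15 reads in Control and 3, 1 and 0 in PA. CDR1as and Cyrano themselves are not miRNAs and were not analysed here.

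Markers of the cell types in which miR-7 is best known had few reads in PA vesicles. Whether such cells contributed miR-7 was not tested. Of 16 listed neuronal miRNAs, 12 had any read and 1 passed the filter. That 1, miR-128-3p, was lower in PA by 3.86 on the log2 scale (limma adjusted p = 0.00542, and 0.0960 at -2.96 with library totals as the scale; -4.50 without Control replicate 2), with 109, 27 and 111 reads in Control and 36, 27 and 16 in PA. Among neuron-defining members, miR-9-5p had 256, 0 and 92 reads in Control and 10, 0 and 1 in PA. miR-124-3p had 6 reads in Control replicate 1 and 0 elsewhere. Other members had reads in PA only, among them miR-137-3p with 9, 0 and 2, miR-383-5p with 0, 6 and 2, and miR-219a-5p with 1, 4 and 0. Summed, the neuronal list stood between 44.1 and 3949 RPM in Control and between 35.9 and 72.6 RPM in PA, so the groups overlapped. Control replicate 1, the Control library with the most miR-7, also held the most reads of this list.

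Of 11 islet and neuroendocrine miRNAs, 10 had any read and none passed the filter. miR-375-3p, the leading islet miRNA, had 1 read in all, in PA replicate 2. miR-200a-3p, a member of an epithelial and endocrine family, had 3, 1 and 7 reads in Control and 9, 10 and 4 in PA. Scaled to library totals it stood at 31.5, 1.52 and 27.7 RPM in Control and at 11.3, 13.1 and 6.52 RPM in PA. miR-200b-3p had 7, 0 and 31 reads in Control and 13, 10 and 0 in PA. miR-429-3p had 14 reads in Control replicate 3 and 0 elsewhere. Other members had reads in PA only, among them miR-184-3p with 3, 0 and 3. The summed list stood between 1.52 and 210 RPM in Control and between 17.9 and 38.8 RPM in PA.

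The hepatocyte list of 6 miRNAs held 63.9% to 82.5% of Control reads and 32.6% to 47.2% of PA reads, so markers of the labelled cell type were present in both groups. Of its 6 members, all tested, 3 were higher, 1 lower and 2 neither, against 42.0% higher and 14.4% lower over all tested miRNAs. The median log2 change of the list was 1.38 against 1.94 over all tested miRNAs. miR-101a-3p rose by 4.65 (SE 0.53, limma adjusted p = 1.63e-04), with 103, 40 and 66 reads in Control and 13363, 13386 and 4424 in PA. miR-101b-3p rose by 5.44 (SE 0.56, adjusted p = 9.77e-05). miR-192-5p rose by 1.94 (adjusted p = 0.0259), which is the median change itself. Its call was lost in most other fits. The adjusted p was 0.0571 to 0.0937 without any 1 library other than Control replicate 2, without which the change was 2.60. It was 0.128 when centred on the median tested miRNA, 0.0571 with upper-quartile scaling and 0.108 with no filter, and relative to the median change the difference was 0.

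In the same list, miR-122-5p fell by 3.56 (limma adjusted p = 0.0141). That call was lost without PA replicate 3 (adjusted p = 0.0524), with no filter (0.0558) and with the replicate number as a block (0.105). The change was -4.24 without Control replicate 1 and -2.74 without Control replicate 2. miR-194-5p stood at -0.23 (adjusted p = 0.720) and miR-148a-3p at 0.83 (adjusted p = 0.453). miR-148a-3p passed without Control replicate 2 (1.75, adjusted p = 0.0256) and with library totals as the scale (1.80, adjusted p = 0.00337). Relative to the median change, miR-194-5p was lower (-2.17, adjusted p = 0.00819). miR-194-5p turned to 0.087 without Control replicate 2 and to 0.12 without PA replicate 1, and passed in neither fit (adjusted p = 0.892 and 0.899).

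Other miRNAs linked to insulin, IGF and growth factor signalling were compared because described targets of miR-7 lie there. Of 12 listed, 11 were in the table and 9 were tested: 5 were higher, 0 lower and 4 did not pass. Over all tested miRNAs 42.0% were higher and 14.4% lower. Of the 5, 4 reached the minimum of the filter in at most 1 Control library (miR-96-5p, miR-29c-3p, miR-103-3p and miR-107-3p) and so were tested through their PA values. The count therefore says nothing about the list, and the members are described singly. miR-96-5p, with 0 reads in Control and 141, 186 and 56 in PA, could pass the filter only by being higher. miR-29c-3p, of a family that represses collagen transcripts, had 0, 1 and 0 reads in Control and 378, 505 and 163 in PA.

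miR-103-3p, a regulator of hepatic insulin sensitivity, rose by 4.94 (SE 1.09), with 18, 2 and 1 reads in Control and 917, 913 and 444 in PA. That change was 6.13 without Control replicate 1 and 4.09 without Control replicate 3. Its near relative miR-107-3p rose by 4.34 (SE 1.18), a call lost without PA replicate 1, with no filter and relative to the median change (2.40). Because miR-103-3p and miR-107-3p were tested through their PA values, no p-value is given for them. Without Control replicate 1 or 3 the change of miR-107-3p was 5.26 or 3.13. miR-29a-3p rose by 3.69 (limma adjusted p = 0.00542) and did not pass relative to the median change (1.75, adjusted p = 0.106) or with no filter (adjusted p = 0.0710). Without Control replicate 1 or 3 its change was 4.73 or 2.98. miR-29b-3p stood at 3.32 (adjusted p = 0.0776) and reached 4.46 when Control replicate 1 was left out (adjusted p = 0.0237). It also passed with a pseudocount of 5 (2.55, adjusted p = 0.0427) and with the replicate block (adjusted p = 0.0331). miR-126a-3p stood at 0.07, miR-143-3p at -0.89 and miR-222-3p at 1.13 (adjusted p = 0.879, 0.192 and 0.128), and without Control replicate 1 miR-126a-3p stood at -0.25 (adjusted p = 0.511). miR-143-3p was lower when centred on the median tested miRNA (-1.68, adjusted p = 0.0220), with upper-quartile scaling (-1.43, adjusted p = 0.0439) and relative to the median change (-2.83, adjusted p = 0.00313). Relative to the median change, miR-126a-3p was lower as well (-1.87, adjusted p = 0.00397). miR-103-3p and miR-107-3p, like the miR-29 members, differ by few bases, so the value of each alone is uncertain.

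**Figure D4:**
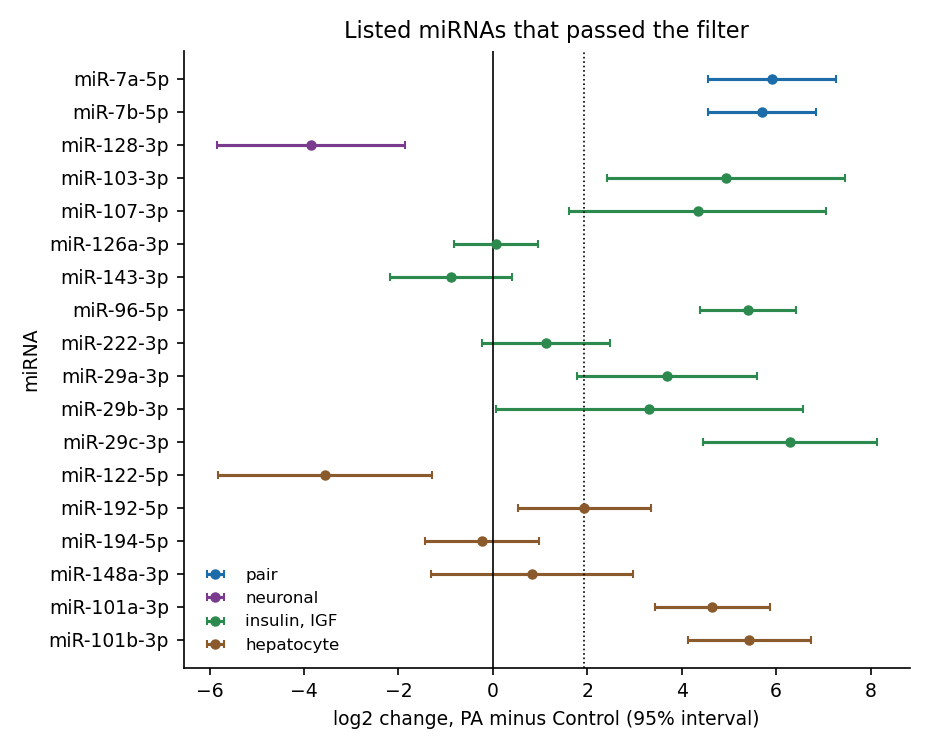
log2 change (PA minus Control, x axis) with its 95% interval for each listed miRNA that passed the filter, coloured by list. The solid line marks no change and the dotted line the median change of 1.94. miR-7a-5p (5.91) and miR-7b-5p (5.71) lie right of both lines, and the single tested neuronal miRNA, miR-128-3p (-3.86), lies left.

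The 5 tested miRNAs whose pattern over the 6 libraries was most like that of the pair were found by the root mean square (RMS) difference between log2 values, each centred on its own mean. miR-374b-5p was the nearest at an RMS difference of 0.33, followed by miR-101b-3p at 0.44, miR-31-3p at 0.55, miR-96-5p at 0.57 and miR-34a-5p at 0.58. miR-374b-5p had 1, 0 and 0 reads in Control and 243, 321 and 215 in PA. miR-31-3p and miR-34a-5p, like miR-96-5p, had 0 reads in each Control library, where the deposited value is set by the adjustment. Of the 5, miR-101b-3p had measured Control levels in each library, with 11, 13 and 7 reads against 3537, 3984 and 1206 in PA. The likeness rests on 6 libraries in 2 groups and so mostly on the size of the change between them.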

How the data were processed

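Vesicle small RNA was sequenced in 6 libraries, 3 Control and 3 PA. The labels' protocols give Trizol extraction and the NEBNext Multiplex small RNA kit. Bowtie2, bedtools, GRCm38 and mm10 appear in the submitters' processing notes, with neither version nor role. The counting rule, which decides how near-identical miRNAs share reads, is not given in the sources used here. Although the table's name calls them raw counts, the values deposited by the authors are log2 of an adjusted count plus 1. They fit counts moved to 1 effective library size by matching negative binomial quantiles (dispersion fitted at 1.387). Rows at 0 numbered 918. In 108 rows positive values stood without a recovered read, so the adjustment may have used further libraries, not analysed here.

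Inverting the adjustment gave reads. Of 5827 values with read numbers at least 0.02 apart on the log2 scale, 99.8% came out whole within 0.0015. The mean of each row was chosen to bring its values closest to whole reads, which favours that share. In 842 simulated rows, 100% of read numbers from 1 to 60 were recovered exactly. These rows were made with the fitted adjustment itself and without further libraries. They check the inversion only and cannot show that the adjustment holds for the deposited values. Higher reads are approximate. Total reads ranged from 95225 to 799051 per library.

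Group differences were fitted to the deposited log2 values of all 181 tested miRNAs with limma 3.58.1 in R 4.3.3, using a trend of variance on mean and a group term, two-sided, with Benjamini-Hochberg adjustment. On data simulated for this comparison, limma recovered 9.33%, 43.8% and 89.3% of log2 differences of 1, 2 and 4, and 2.24% of its calls were false. The simulated rows were independent, with equal spread in both groups and no effect shared within a library. These rates may therefore not hold for the real libraries, where miR-7a-5p had an SD of 1.18 in Control and 0.22 in PA. Fold changes understate the change of low miRNAs. Intervals were computed with SciPy 1.17.1.

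miRNAs were named by a rule: the pair, its opposite arms, rows with its seed, 5 lists and the 5 most alike miRNAs. The members and lists were chosen with earlier results of these data known. Shares, ratios and sums of the pair are given with SD, without a test. Fisher's exact tests of the split between libraries are not reported, because PCR copies are not independent reads.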

Additional observations from a re-analysis of the deposited data

How the results depend on the processing

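The changes of miR-7a-5p, miR-7b-5p and their sum stayed positive under the 16 alternatives tried for each. Leaving out the filter or raising it, dropping the variance trend and blocking by replicate number could not alter them. With library totals as the scale the changes were 6.89, 6.71 and 6.81. Relative to the median change they were 3.97, 3.77 and 3.89. Centred on the median tested miRNA, miR-7b-5p stood at 4.92 and the sum at 5.03. Leaving out 1 library gave 5.46 to 6.58, 5.29 to 5.95 and 5.36 to 6.35. The log2 ratio of the members ranged from -0.20 (without Control replicate 2) to 0.62 when 1 library was left out. The difference in the share of reads was 1.63 to 1.97 percentage points over its alternatives.

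Higher calls numbered 76 and fell to 48 relative to the median change, and leaving out 1 library gave 28 to 86. They numbered 28, 32 and 33 without PA replicates 1, 2 and 3, where fewer miRNAs were tested (146, 146 and 142). The filter still asked for 3 libraries, so with a PA library left out a miRNA could not be tested through its PA values alone. Lower calls numbered 26, against 60 with no filter, 8 with library totals, 40 when centred and 59 relative to the median change, and 18 to 29 with 1 library left out. Upper-quartile scaling gave 69 higher and 37 lower, and library totals 89 higher. In these other fits the cause was not tested.

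Direction turned for miR-126a-3p when centred (-0.72), with upper-quartile scaling (-0.48), relative to the median change (-1.87) and without Control replicate 1 (-0.25; up to 0.29 without Control replicate 3). It turned for miR-143-3p (0.078) and miR-194-5p (0.74) with library totals, for miR-194-5p without Control replicate 2 (0.087) or PA replicate 1 (0.12; down to -0.62 without PA replicate 3), and for miR-222-3p (-0.81) and miR-148a-3p (-1.11) relative to the median change.

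With the replicate number as a block, 83 miRNAs were higher and 28 lower; it ended the call of miR-122-5p (adjusted p = 0.105) and made one of miR-29b-3p (0.0331). Same-numbered libraries correlated in their deviations from group means at 0.21, 0.15 and 0.038. Libraries of different number correlated at -0.18 to 0.062. With 3 libraries per group these values cannot decide whether same-numbered libraries were paired, and the labels name no pairing. Depth limits the Control values of the pair, which rest on 9 to 54 reads per library and member.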

Other observations

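Among 44 hairpins with both arms in the table and at least 1000 reads of the more abundant arm over the PA libraries, the median ratio of the arms was 157, with the rarer arm set to no fewer than 3 reads. The ratio of Mir7b was 4282 at that floor. Of the 44, 4 had no read of the rarer arm, Mir7b among them, so their ratios are set by the floor and are not ranked.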
